A study of Mus musculus with 10 samples.

Results

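Antisense RNAs are transcripts annotated on the DNA strand opposite a gene, and most do not encode protein. The table of FPKM values (fragments scaled to gene length and to the total of the library) from mouse motor cortex labelled 1731 of its 35275 genes as antisense. Of these, 121 were on autosomes and had a mean of at least 1 FPKM over the 10 libraries, and they are described here beside the protein-coding gene each overlaps on the other strand. Another 1563 autosomal rows were under 1 FPKM, and 47 rows were on chromosomes X and Y and were not used. The 121 were thus chosen by their mean FPKM in these libraries, and their levels are a description. Just inside the limit were Zfp335os with a mean of 1.0004 FPKM, Lrp8os2 with 1.0005 FPKM and Gm16638 with 1.003 FPKM. Just outside were Prkag2os1 with 0.9994 FPKM, Gm13523 with 0.9969 FPKM and RP23-388A19.1 with 0.9952 FPKM.

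The mice were C57BL/6, taken at postnatal day 22, and motor cortex was the labelled tissue of all 10 libraries. In 5 libraries the genotype was wild type (WT), and in the other 5, titled Astro-mem KO, membralin was deleted conditionally in astrocytes (KO). Membralin, a membrane protein of the endoplasmic reticulum, is encoded by Tmem259. The labels give neither the Cre driver nor the floxed allele, and they do not say whether the controls carried either. They call the 5 libraries of a genotype biological repeats.

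Antisense transcription often starts near the promoter of a coding gene and runs away from it, or begins within a gene or beyond its end and crosses it. Many such RNAs stay in the nucleus at low copy and are removed by the nuclear exosome, an RNA-degrading complex. Some are known to act on the gene they overlap, by pairing with its RNA, by competing for transcription or through chromatin, and several accompany transcription factor genes of the developing forebrain.

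Libraries held between 22793058 and 28827871 fragments, and the 121 RNAs took between 0.0444 and 0.0496% of them. Tmem259 was highest, at 34.4 FPKM, in the library labelled KO3. The other KO libraries had 16.9 to 26.2 FPKM and the WT libraries 23.8 to 32.4 FPKM. Its difference between genotypes did not pass the test with KO3 (log2 fold change -0.27, limma adjusted p = 0.275) and did without it (-0.42, limma adjusted p = 0.0278). Leaving out the library with the highest value lowers the KO mean in advance, so the second result is not separate evidence of a fall. Gfap, the astrocyte filament gene, told the same library apart, with 106 FPKM in KO3 against 426 to 673 FPKM in the other KO libraries and 79.4 to 114 FPKM in WT. Counts are therefore given with and without the library labelled KO3. The library kit is not stated to keep strand. Where exons of both strands overlap, fragments of the antisense RNA and of its partner cannot be told apart. The same holds for fragments of unspliced partner RNA where an antisense exon lies in an intron of the partner. Values of RNAs without exon overlap can therefore hold partner fragments too, and this was not tested. In whole tissue fewer cells of a type cannot be told apart from less RNA per cell.

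Most of the expressed antisense RNAs were rare. Their mean level had a median of 1.90 FPKM, 66 of 121 were under 2 FPKM, 11 were above 5 FPKM and 6 were above 10 FPKM. Gene length had a median of 864 bases and ranged from 110 to 5410 bases. The lowest fragment count of each member over the 10 libraries had a median of 26, and 19 members had fewer than 10 fragments in some library. The spread followed the level. The coefficient of variation among WT libraries had a median of 28.6% for the 66 members of 1 to 2 FPKM, 19.4% for the 44 of 2 to 5 FPKM and 13.3% for the 11 of at least 5 FPKM.

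By the coordinates in the table, 93 of the 121 overlapped at least 1 coding gene on the other strand, and 11 of them overlapped more than 1. In 39 cases (32.2%) the antisense gene lay wholly inside the coding gene, against 54.0% of the antisense rows under 1 FPKM. In 25 cases (20.7% against 16.1%) the genes overlapped head-to-head, at their starts, and in 23 (19% against 11.8%) tail-to-tail, at their ends. A further 6 (4.96% against 3.01%) spanned the whole coding gene. The remaining 28 (23.1% against 15.1%) overlapped no coding gene on the other strand. Of these 28, 22 had their nearest opposite-strand coding gene upstream, and in 16 it began within 1000 bases. Among the 25 head-to-head RNAs, 14 started within 1000 bases of the start of the coding gene. In all, 30 of 121 lay that close to a coding start running the other way. In GENCODE release M21, 114 of the 121 had an entry, of which 98 were still typed antisense and 3 had become protein-coding. In 67 of the 114 some exon bases lay inside exons of a coding gene on the other strand, and in 47 none did.

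**Figure D1:**
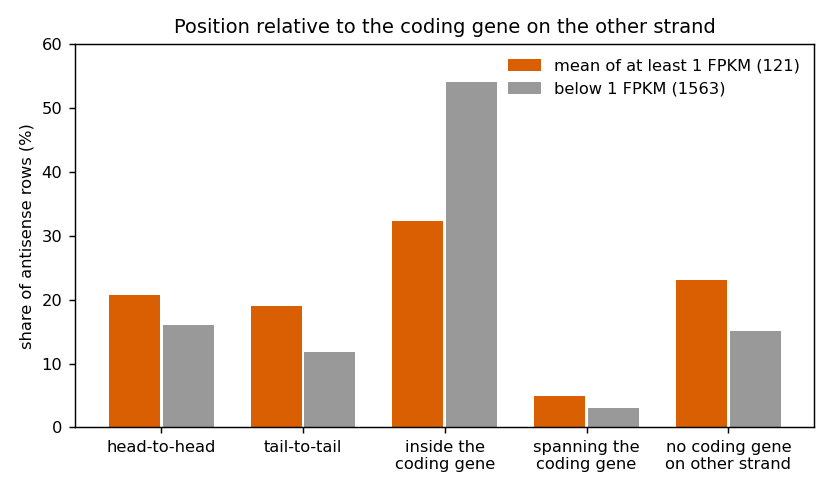
Share of antisense rows (%, y axis) by position relative to the coding gene on the other strand (x axis), for the 121 autosomal rows with a mean of at least 1 FPKM (orange) and the 1563 below (grey). RNAs inside a coding gene made up 32.2% of the expressed rows and 54.0% of the others.

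A coding partner was usually the more abundant of the pair. The main partner, the one with the longest overlap, had a median of 9.34 FPKM, and the antisense RNA exceeded it in 18 of 93 pairs. Both values are per length. The pairs in which the antisense RNA was higher included Gm12473 at 11.98 FPKM with Npr2, a natriuretic peptide receptor, at 8.81 FPKM. Gm2415 had 8.75 FPKM and Itga9, an integrin subunit, 2.67 FPKM. Dlx6os1, also known as Evf2, an RNA of GABAergic precursor cells, had 7.18 FPKM and the homeobox gene Dlx6 it spans had 3.30 FPKM.

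**Figure D2:**
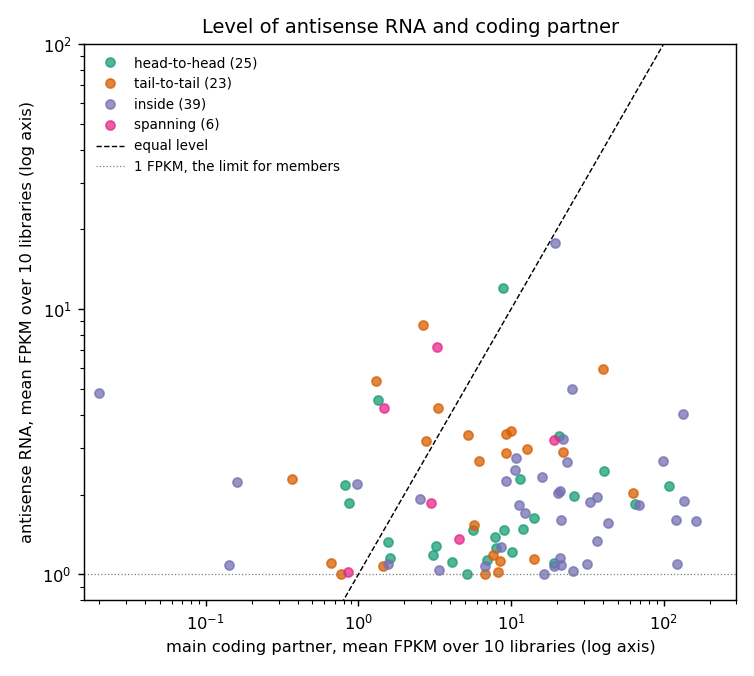
Mean FPKM over 10 libraries of each antisense RNA (y axis, log scale) against that of its main coding partner (x axis, log scale) for the 93 RNAs with a partner, coloured by position. The dashed line marks equal levels, the dotted line 1 FPKM, and 1 partner listed at 0 is drawn at the left edge; 18 points lie above the dashed line.

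Between genotypes, 10 of the 121 antisense RNAs passed the test (8.26%), 4 higher and 6 lower in KO, where 13.3% of all 14497 tested genes passed (9.77% higher and 3.51% lower). The test was limma on log2(FPKM + 1) with Benjamini-Hochberg adjustment over all tested genes, called under 0.05. Fold changes are on that scale, which understates the change of low genes. An adjusted p here sets the difference between the genotype means against the spread among these libraries. In 5 of 121 the WT and KO values did not overlap, which was 4.13% where 7.55% of all genes had groups that did not overlap. An unadjusted p under 0.05 was seen for 22 of 121 (18.2%) and for 32.8% of all genes. Protein-coding genes were called in 14.0%, long intergenic RNAs in 6.87%, and the antisense rows between 0.5 and 1 FPKM in 1.63%. The median log2 fold change was -0.00061 over the 121 and 0.078 over all tested genes, and 60 of 121 (49.6%) were above 0 against 69.5% of all genes. With median-of-ratios scaling, which moved the median of all genes to -0.0024, 2 members were called higher and 7 lower, and of 1553 genes called 607 were higher. With quantile normalization 2 were called higher and 11 lower, and of 1407 genes called 617 were higher.

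The number called depended on single libraries. Without the library labelled KO3, 17 of 121 were called (8 higher and 9 lower, all 10 among them), where 26.0% of all genes were. Without WT1, KO2 or KO4, 1 of 121 was called in each case and 2 genes of the whole table. Without KO1 4 were called, and without WT5 or KO5 6 each. Some markers of other tissue moved with genotype. The summed level of 7 olfactory bulb genes was 5.15 to 31.0 FPKM in WT and 21.3 to 64.7 FPKM in KO libraries, 2 of 7 were called higher (Th and Trh), and each was above 0 in every library. With a score of these genes as a covariate, 0 members and 0 genes were called in limma (14 of 121 at an unadjusted p under 0.05). Among the 2 WT and 4 KO libraries with at least 1 FPKM of Omp, the olfactory marker protein gene, 0 were called too (20 of 121 at an unadjusted p under 0.05). The share of all genes at that unadjusted p in these 2 fits is not given here. In the fit of all 10 libraries without the score it was 32.8%, against 18.2% of members. All 10 called members kept their direction in both fits, with an unadjusted limma p under 0.05 for 7 and for 10 of them. Since the 10 were picked by their p in these same libraries, this is a description and does not test the part of olfactory bulb tissue. Of 7 GABAergic markers 4 were called higher and 1 lower, with a summed level of 256 to 338 FPKM in WT and 364 to 538 FPKM in KO. Of 5 striatal markers 2 were higher, at 154 to 481 FPKM and 375 to 531 FPKM in sum. Of 3 thalamic markers 1 was lower and 0 were higher, and of 3 choroid plexus markers 0 were called. Among 8 markers of cortical excitatory neurons 3 were lower, Rorb and Cux2 among them, and 1 higher (Bcl11b), at 845 to 947 FPKM in WT and 861 to 1073 FPKM in KO in sum. Of 6 astrocyte markers 2 were higher (Gfap and Aqp4), with a summed level of 740 to 847 FPKM in WT and 746 to 1356 FPKM in KO, and of 4 microglial markers 1 was higher (Aif1), at 44.3 to 54.7 FPKM and 50.7 to 58.8 FPKM. Of 4 oligodendrocyte markers 0 passed in limma, all 4 had an unadjusted p under 0.05 with a median log2 fold change of -0.31, and 4 were called lower without KO3. Their summed level was 1321 to 1666 FPKM in WT and 1008 to 1517 FPKM in KO. The part of these neuronal and glial markers in the results was not tested.

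**Figure D3:**
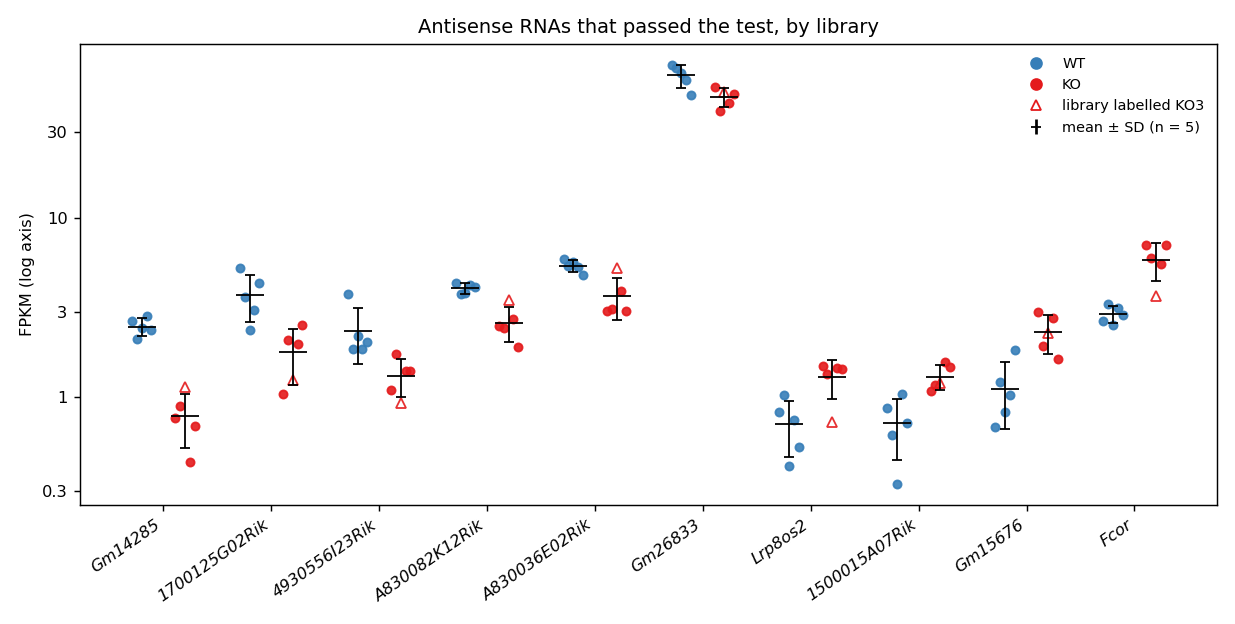
FPKM (y axis, log scale) in each library of the 10 antisense RNAs that passed the test, ordered by log2 fold change. Points are libraries (WT blue, KO red, the library labelled KO3 as an open triangle), and bars give mean ± SD of 5; Gm14285, at the left, had all 5 KO libraries below all 5 WT libraries.

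The antisense RNA with the largest fall was Gm14285 (ENSMUSG00000087524, chr2:131561614-131563179 in mm10, plus strand). It is annotated head-to-head with Adra1d, the alpha-1D adrenergic receptor, and starts 669 bases inside it. Gm14285 measured 2.66, 2.10, 2.42, 2.84 and 2.36 FPKM in WT1 to WT5 and 0.764, 0.889, 1.14, 0.433 and 0.687 FPKM in KO1 to KO5. Every KO library was below every WT library, at 4 to 29 fragments per library. The mean fell from 2.48 ± 0.284 in WT to 0.782 ± 0.259 FPKM in KO (SD, n = 5), a log2 fold change of -0.97 (SE 0.11, limma adjusted p = 0.00821). It was the member called in the most alternative fits, 22 of 25. Its KO mean was under 1 FPKM, so it was a member through its WT values.

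Adra1d itself measured 17.5, 15.7, 17.4, 17.7 and 18.2 FPKM in WT and 12.2, 8.83, 14.5, 11.1 and 7.84 FPKM in KO. The receptor gene was also lower in every KO library than in any WT library (log2 fold change -0.65, SE 0.13, limma adjusted p = 0.0186). Ratios here are log2(FPKM + 1) of the RNA minus log2(FPKM + 1) of its partner. This scale counts a change of the lower gene of a pair less, so it is not the ratio of the FPKM values. On it the ratio of Gm14285 to Adra1d differed by -0.32 (SE 0.14, limma adjusted p = 0.221 over all pairs) and did not pass. Over 25 alternative fits the difference ran from -0.95 to -0.24 and was called in 0. The RNA is shown because its first exon lies whole within the coding sequence of its partner. In the first 300 of its 380 bases (GENCODE M21 transcript, GRCm38) capitals mark the 147 bases that are antisense to Adra1d coding sequence, which are all of exon 1 (chr2:131561614-131561760). Bases of exon 2 (chr2:131562947-131563179) are in lower case.
Gm14285: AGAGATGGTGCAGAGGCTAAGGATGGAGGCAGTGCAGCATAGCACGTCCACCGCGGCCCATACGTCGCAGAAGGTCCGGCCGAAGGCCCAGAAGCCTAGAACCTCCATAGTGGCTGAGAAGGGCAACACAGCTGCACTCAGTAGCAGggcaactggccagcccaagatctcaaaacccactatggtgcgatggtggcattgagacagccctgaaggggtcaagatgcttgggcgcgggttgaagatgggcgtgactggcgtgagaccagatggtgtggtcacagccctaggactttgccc

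Another called RNA lay inside a receptor gene. 1700125G02Rik (ENSMUSG00000085263, chr4:124890888-124894782, minus strand) lies wholly within Epha10, an ephrin receptor. Its values were 5.22, 3.61, 2.37, 3.08 and 4.31 FPKM in WT and 1.05, 2.10, 1.25, 1.98 and 2.52 FPKM in KO. In 4 of 5 KO libraries it was below all WT libraries, and KO5 lay within the WT range. The mean fell from 3.72 ± 1.10 in WT to 1.78 ± 0.613 FPKM in KO (SD, n = 5; log2 fold change -0.76, SE 0.18, limma adjusted p = 0.0246). Epha10 had 13.2, 12, 11.1, 10.5 and 15.2 FPKM in WT and 9.26, 7.59, 9.89, 8.52 and 9.90 FPKM in KO, with no overlap between the groups (log2 fold change -0.41, limma adjusted p = 0.0244). Their ratio differed by -0.35 (SE 0.18, limma adjusted p = 0.329). When the fit took the olfactory bulb score in, the log2 fold change of 1700125G02Rik was -0.39 (limma adjusted p = 0.386, the highest of the 10). It was -0.34 with the score and without KO3 (limma adjusted p = 0.36). The RNA of 519 bases has 3 exons. Its first 300 bases, from exon 1 (chr4:124894480-124894782), are shown with the 79 bases at the 5′ end that are antisense to Epha10 coding sequence in capitals.
1700125G02Rik: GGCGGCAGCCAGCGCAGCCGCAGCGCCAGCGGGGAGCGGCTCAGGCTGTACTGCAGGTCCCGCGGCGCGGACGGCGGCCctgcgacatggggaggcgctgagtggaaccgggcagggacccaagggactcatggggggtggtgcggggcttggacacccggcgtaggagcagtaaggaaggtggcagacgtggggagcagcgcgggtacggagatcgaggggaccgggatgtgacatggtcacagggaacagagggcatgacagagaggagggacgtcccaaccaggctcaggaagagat

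Beside Nr2f1, a nuclear receptor gene that sets area identity in the developing cortex, A830082K12Rik (ENSMUSG00000087143, chr13:78198017-78279391, plus strand) fell with its partner. Its transcription start lies 1740 bases inside the span of Nr2f1, and 1.49% of its exon bases are in exons of coding genes on the other strand. A830082K12Rik measured 4.35, 3.75, 3.79, 4.22 and 4.14 FPKM in WT and 2.48, 2.42, 3.49, 2.72 and 1.91 FPKM in KO. All KO libraries were below all WT libraries, with KO3 the highest of the KO group (log2 fold change -0.50, SE 0.10, limma adjusted p = 0.0186). Nr2f1 measured 26.2, 21.2, 23.9, 22.2 and 24.9 FPKM in WT and 17.1, 15.8, 22.8, 15.8 and 16.2 FPKM in KO. KO3 was within the WT range and the others below it (log2 fold change -0.42, SE 0.10, limma adjusted p = 0.0227). The ratio differed by -0.08 (SE 0.09, limma adjusted p = 0.745).

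A830036E02Rik (ENSMUSG00000084890, chr11:99416956-99425497, plus strand) overlaps Krt12, a keratin gene known from the cornea, head-to-head by 5304 bases. The antisense RNA was the more abundant of the pair, with 5.88, 5.4, 5.68, 5.31 and 4.81 FPKM in WT and 3.01, 3.12, 5.25, 3.93 and 3.01 FPKM in KO. In 4 of 5 KO libraries it was below all WT libraries, and KO3 was inside the WT range (log2 fold change -0.48, SE 0.12, limma adjusted p = 0.026). Krt12 had 1.48, 1.42, 1.68, 1.99 and 1.91 FPKM in WT and 0.842, 0.770, 1.47, 0.822 and 0.987 FPKM in KO (log2 fold change -0.45, SE 0.10, limma adjusted p = 0.0234). For Krt12, too, KO3 alone reached WT values, and 16.7% of the exon bases of the antisense RNA lie in coding-gene exons of the other strand. The ratio differed by -0.03 (SE 0.12, limma adjusted p = 0.967).

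The starts of these head-to-head RNAs are shown because the pairs fell together. The windows are from RefSeq (GRCm38.p6), which has one for 46 of the 121 by symbol. Each runs toward the RefSeq transcription start of the antisense RNA and ends with the first 50 bases transcribed from there. That start lies 287 bases inside the span given above for A830036E02Rik, and for A830082K12Rik it is the same base as in the table. For A830036E02Rik it is chr11:99416993-99417292 (plus strand, 300 bases), and for A830082K12Rik the 136 bases chr13:78197931-78198066 (plus strand), without the part that overlaps untranslated sequence. Capitals mark matches, on either strand, to GGGCGG (a GC box), CCAAT or TATAAA, which occur in 35.7%, 37.4% and 13.6% of all 32851 RefSeq windows of 300 bases. The A830036E02Rik window holds 1 CCAAT match, and the stretch shown for A830082K12Rik holds none of the 3 motifs and is 69.1% G and C.
A830036E02Rik: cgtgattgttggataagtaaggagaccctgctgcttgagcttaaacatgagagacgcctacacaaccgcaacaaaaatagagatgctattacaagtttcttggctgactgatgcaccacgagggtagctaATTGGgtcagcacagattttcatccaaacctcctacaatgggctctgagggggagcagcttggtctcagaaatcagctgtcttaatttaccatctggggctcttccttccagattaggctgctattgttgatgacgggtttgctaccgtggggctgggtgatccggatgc
A830082K12Rik: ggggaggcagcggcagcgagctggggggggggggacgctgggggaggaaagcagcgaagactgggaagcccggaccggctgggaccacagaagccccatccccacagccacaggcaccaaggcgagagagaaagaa

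Gm26833 (ENSMUSG00000097406, chr6:39871532-39871971, minus strand) was the most abundant of the 121. This single-exon RNA of 440 bases overlaps no coding gene and lies 1300 bases from the start of Tmem178b, a transmembrane protein gene that runs the other way. It had 71.2, 68.1, 64.6, 58.9 and 48.3 FPKM in WT and 53.6, 39.2, 50.01, 43.7 and 49.0 FPKM in KO. The groups overlapped, with 2 KO libraries below all WT libraries. The mean fell from 62.2 ± 9.04 in WT to 47.1 ± 5.66 FPKM in KO (SD, n = 5; log2 fold change -0.39, SE 0.11, limma adjusted p = 0.037).

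4930556I23Rik (ENSMUSG00000089767, chr1:37614259-37615372, plus strand) lies inside 2010300C02Rik, and none of its exon bases are in coding-gene exons of the other strand. It measured 3.74, 1.86, 2.19, 1.86 and 2.04 FPKM in WT and 1.10, 1.74, 0.925, 1.40 and 1.40 FPKM in KO. All KO libraries were below all WT libraries, and WT1 stood above the rest (log2 fold change -0.51, SE 0.14, limma adjusted p = 0.0386). It was the 1 called member that a limma voom fit on recovered fragments did not call (adjusted p = 0.0671). The host gene had 73.1 ± 5.07 (WT) and 65.1 ± 4.24 FPKM (KO; SD, n = 5; limma adjusted p = 0.0953).

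Among the 4 RNAs that rose, Fcor (ENSMUSG00000089665, chr8:3671188-3672336, minus strand) had the largest difference. Fcor is named for a corepressor of the transcription factor Foxo1, and GENCODE M21 types it as protein-coding. It measured 2.67, 3.32, 2.52, 3.15 and 2.89 FPKM in WT and 7.04, 5.95, 3.65, 5.51 and 7.02 FPKM in KO. All KO libraries were above all WT libraries, with KO3 nearest to them. The mean rose from 2.91 ± 0.33 in WT to 5.83 ± 1.39 FPKM in KO (SD, n = 5; log2 fold change 0.78, SE 0.13, limma adjusted p = 0.018). The 250 bases before its RefSeq start, which lies 55 bases before that in the table (RefSeq, chr8:3672392-3672641, minus strand) hold 1 CCAAT match, in capitals as above.
Fcor: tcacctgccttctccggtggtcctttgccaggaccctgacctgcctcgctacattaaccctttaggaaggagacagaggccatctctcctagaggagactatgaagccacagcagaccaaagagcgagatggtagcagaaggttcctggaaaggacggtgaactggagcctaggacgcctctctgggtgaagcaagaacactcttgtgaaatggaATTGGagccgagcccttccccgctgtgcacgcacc

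Gm15676 (ENSMUSG00000085583, chr7:126800790-126809108, minus strand) overlaps no coding gene on the other strand, and Fam57b is the nearest. It had 0.679, 1.22, 0.824, 1.02 and 1.83 FPKM in WT and 3.0, 1.93, 2.27, 2.78 and 1.63 FPKM in KO. In 4 of 5 KO libraries it was above all WT libraries, and KO5 was below WT5 (log2 fold change 0.66, SE 0.15, limma adjusted p = 0.0231). The value without KO3 was the same to 2 decimals, 0.66 (limma adjusted p = 0.0139).

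1500015A07Rik and Lrp8os2 had WT means under 1 FPKM and were members through their KO values. With the limit set on the WT mean as well, 114 RNAs remained, of which 2 were called higher and 6 lower. A limit on the KO mean left 107, with 4 higher and 5 lower and without Gm14285. Limits on both means left 100, with 2 higher and 5 lower. 1500015A07Rik (ENSMUSG00000098702, chr18:61726390-61735917, plus strand) meets Afap1l1, an actin filament associated protein, tail-to-tail over 5657 bases. It had 0.872, 0.614, 0.329, 1.04 and 0.720 FPKM in WT and 1.09, 1.17, 1.20, 1.57 and 1.47 FPKM in KO. All KO libraries were above all WT libraries (log2 fold change 0.43, SE 0.12, limma adjusted p = 0.0336). Afap1l1 went the other way without passing the test, from 7.51 ± 0.158 in WT to 5.96 ± 1.36 FPKM in KO (SD, n = 5; log2 fold change -0.31, limma adjusted p = 0.0721).

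The ratio of 1500015A07Rik to Afap1l1, on the log2(FPKM + 1) scale, was higher in KO by 0.75 (SE 0.17, limma adjusted p = 0.0447). It was the 1 ratio called among 99 pairs that hold a member (1.01%), where 2.57% of all 1481 opposite-strand pairs were called. Across the alternatives its adjusted p ranged from 0.00635 without KO3 to 0.504 among the libraries with Omp. Leaving out any library other than KO3 ended the call, with adjusted p between 0.0594 and 0.123. Without KO3, 7 of 99 member ratios were called, where 7.22% of all pairs were.

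Lrp8os2 (ENSMUSG00000073779, chr4:107806033-107823022, minus strand) lies inside Lrp8, a receptor for reelin, with no exon base in its exons. It had 0.822, 1.03, 0.413, 0.748 and 0.529 FPKM in WT and 1.48, 1.35, 0.729, 1.46 and 1.44 FPKM in KO. Only KO3 fell within the WT range (log2 fold change 0.42, SE 0.13, limma adjusted p = 0.0458). Lrp8 measured 15.3 ± 1.53 (WT) and 17.6 ± 2.16 FPKM (KO; SD, n = 5; limma adjusted p = 0.157). Under both other scalings neither Lrp8os2 nor 1500015A07Rik was called, with adjusted p between 0.0519 and 0.0981, and both stayed higher in KO.

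Set beside their partners, 4 of the 10 called RNAs had a main partner called in the same direction, all lower (Adra1d, Nr2f1, Epha10 and Krt12). For 3 others with a partner the partner did not pass, and 3 had none. All 4 RNAs that fell with their partner have exon bases inside coding-gene exons of the other strand, where fragments cannot be told apart. 4930556I23Rik and Lrp8os2, without such bases, had partners that did not pass. The part of shared fragments in these pairs was not tested. Of the 88 tested main partners 11 were called (12.5%, 5 higher and 6 lower), near the 13.3% of all genes. Without KO3, 11 were called higher (12.5%) and 9 lower (10.2%), where 26.0% of all genes were called in either direction. Under both other scalings no partner was called higher, and 10 or 8 were called lower. Among all genes, too, fewer were called higher than lower under them, as given above. Antisense RNA and main partner had fold changes of the same sign in 53 of 89 pairs (59.6%), and all opposite-strand pairs in 949 of 1481 (64.1%).

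**Figure D4:**
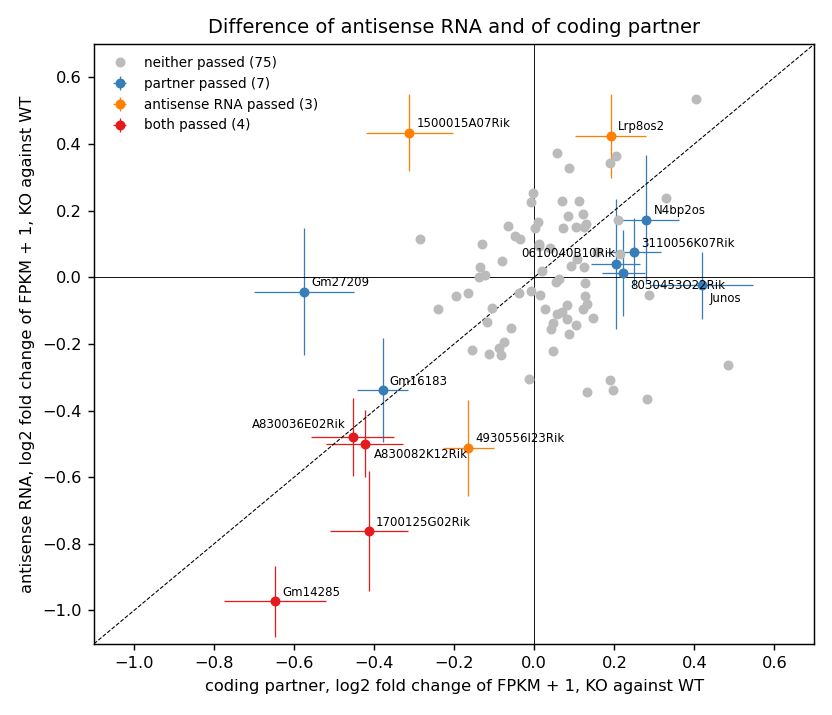
Log2 fold change of FPKM + 1, KO against WT, of each antisense RNA (y axis) against its main coding partner (x axis) for the 89 pairs with a tested partner; bars give the SE where the RNA or partner passed the test. The 4 red points, both passed, lie at the lower left, and 1500015A07Rik lies above 0 with a partner below 0.

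In 7 pairs the main partner was called and the antisense RNA was not. Cacna1a, the pore subunit of P/Q-type calcium channels, fell from 35.7 ± 1.10 in WT to 27.3 ± 2.86 FPKM in KO (SD, n = 5; limma adjusted p = 0.018). Gm16183, inside it, had 1.24, 1.57, 1.10, 1.59 and 1.09 FPKM in WT and 0.639, 0.314, 1.34, 0.690 and 1.39 FPKM in KO. In 3 KO libraries it was below all WT libraries and in KO3 and KO5 within their range (log2 fold change -0.34, limma adjusted p = 0.153). The KO mean of Gm16183 was under 1 FPKM, so it was a member through its WT values. Pou6f1, a POU-domain transcription factor gene, fell from 25.6 ± 5.23 in WT to 16.7 ± 2.20 FPKM in KO (SD, n = 5; log2 fold change -0.58, limma adjusted p = 0.0209). Gm27209 inside it had 1.13 ± 0.574 and 1.05 ± 0.457 FPKM (limma adjusted p = 0.896), and the ratio differed by 0.53 (SE 0.17, limma adjusted p = 0.117), and by 0.68 without KO3 (limma adjusted p = 0.00925).

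The other 5 partners of this kind rose. Jun, a subunit of the transcription factor AP-1, had 17.4, 15.3, 16.5, 15.7 and 14.9 FPKM in WT and 24.4, 21.9, 14.3, 24.0 and 25.7 FPKM in KO. All KO libraries except KO3 were above all WT libraries (log2 fold change 0.42, limma adjusted p = 0.0482). Junos, head-to-head with it and starting 688 bases inside it, had 1.12 ± 0.19 (WT) and 1.09 ± 0.243 FPKM (KO; SD, n = 5; limma adjusted p = 0.889). The ratio of Junos to Jun differed by -0.44 (SE 0.16, limma adjusted p = 0.172), and by -0.60 without KO3 (limma adjusted p = 0.0096). Dennd2a, Psma3, N4bp2 and Zdhhc4 rose by 0.20 to 0.28 on the log2 scale (limma adjusted p from 0.0255 to 0.0468). Their antisense RNAs 8030453O22Rik, 3110056K07Rik, N4bp2os and 0610040B10Rik had log2 fold changes of 0.01, 0.08, 0.17 and 0.04 (limma adjusted p from 0.568 to 0.952). 0610040B10Rik and Zdhhc4, which encodes a palmitoyltransferase, overlap by 10 bases at their starts.

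Of the 8 most abundant members, 7 did not pass. Gm17201, inside Ankrd52, a regulatory subunit of a protein phosphatase, had 17.3 ± 3.31 (WT) and 18.4 ± 1.17 FPKM (KO; SD, n = 5; limma adjusted p = 0.552). Of its exon bases 59.5% lie in coding-gene exons of the other strand, and Ankrd52 had 20.4 and 18.5 FPKM. 5430417L22Rik, typed protein-coding in GENCODE M21, had 14.9 and 16 FPKM. Gm13375, which begins 173 bases from Arhgap21, had 12.4 and 13.9 FPKM. Gm12473 had 12.1 and 11.9 FPKM, Gm13716 beside Lrrc55 9.81 and 11.9 FPKM, and Gm2415 9.26 and 8.24 FPKM. The log2 fold changes of these 6 ran from -0.15 to 0.27.

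The Dlx homeobox genes specify GABAergic neurons of the forebrain, and antisense RNAs of Dlx6 and Dlx1 were among the members. Dlx6os1 had 4.48, 5.65, 9.93, 5.92 and 3.06 FPKM in WT and 8.01, 10.9, 9.30, 9.22 and 5.36 FPKM in KO. WT3 was as high as the KO libraries, and the groups overlapped (log2 fold change 0.54, SE 0.23, limma adjusted p = 0.129). Dlx6 had 2.72 ± 0.805 and 3.87 ± 0.739 FPKM (SD, n = 5; log2 fold change 0.41, limma adjusted p = 0.087). Dlx1as overlaps Metap1d, its main partner, and Dlx1. Dlx1as had 3.04 ± 0.595 (WT) and 3.31 ± 1.07 FPKM (KO; SD, n = 5; log2 fold change 0.07, limma adjusted p = 0.799). Dlx1 rose, from 6.31, 6.00, 11.9, 9.65 and 6.08 FPKM in WT to 13.4, 16.7, 12.1, 14.7 and 9.27 FPKM in KO (log2 fold change 0.69, limma adjusted p = 0.0353). The ratio of Dlx1as to Dlx1 differed by -0.62 (SE 0.19, limma adjusted p = 0.107). As given above, 4 of 7 GABAergic, 2 of 5 striatal and 2 of 7 olfactory bulb markers were called higher and 1 GABAergic marker (Pvalb) lower, and their part in these values was not tested.

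The other RNAs named for a gene or locus did not pass. Rab10os, tail-to-tail with the small GTPase gene Rab10, had 6.95, 5.76, 6.57, 6.15 and 5.73 FPKM in WT and 5.55, 5.37, 6.33, 5.47 and 5.41 FPKM in KO. In all KO libraries but KO3 it was below all WT libraries (log2 fold change -0.12, limma adjusted p = 0.21). Grin1os, inside the NMDA receptor gene Grin1, had 2.88, 2.78, 3.23, 2.74 and 3.06 FPKM in WT and 2.22, 1.97, 2.24, 3.23 and 2.42 FPKM in KO, with KO4 alone within the WT range (log2 fold change -0.21, limma adjusted p = 0.128). Of its exon bases 45.2% lie in coding-gene exons of the other strand, and Grin1 had 102 and 95.6 FPKM. Bcas1os2, inside the oligodendrocyte gene Bcas1, had 1.18 ± 0.149 and 0.873 ± 0.258 FPKM (SD, n = 5; log2 fold change -0.23, limma adjusted p = 0.148). It, too, was a member through its WT values.

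Brip1os spans Ints2, a subunit of the Integrator complex, and had 1.70 ± 0.182 and 2.0 ± 0.317 FPKM (SD, n = 5; log2 fold change 0.15, limma adjusted p = 0.252). Gt(ROSA)26Sor, the RNA of the Rosa26 locus widely used for knock-in alleles, had 3.29 ± 1.14 and 3.44 ± 0.356 FPKM (SD, n = 5; limma adjusted p = 0.718). Abhd11os, St8sia3os, Sp3os, Phf2os1, Kcnmb4os2, Far1os, Zfp652os, Srrm4os, Zfp85os and Zfp335os had log2 fold changes between -0.19 and 0.22 (limma adjusted p from 0.231 to 0.971). Kcnmb4os2, head-to-head with a subunit gene of calcium-activated potassium channels, was above its partner in level, at 1.85 against 0.871 FPKM.

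Within genotypes the RNA and its partner varied together in some pairs. Over the 10 libraries, with each group centred on its mean, the Pearson correlation of log2(FPKM + 1) had a median of 0.17 over the 89 pairs with a tested partner and 0.12 over all 1481 opposite-strand pairs. These are descriptions over 10 libraries that share depth and, where exons overlap, sequence. KO3 was centred on the KO mean like the others, and the correlations are not given without it. A library far from its group moves such a correlation, and KO3 was the highest KO library for A830082K12Rik and Nr2f1 alike. Spanning RNAs had a median of 0.55 (6 pairs), head-to-head RNAs 0.27 (25 pairs), tail-to-tail RNAs 0.15 (22 pairs) and RNAs inside a gene -0.06 (36 pairs). The level went with it. Members of at least 2 FPKM had a median of 0.33 (36 pairs) and those under 2 FPKM 0.04 (53 pairs). The following pairs were picked after their values were seen. Gm17201 with Ankrd52 had 0.80, Dlx6os1 with Dlx6 0.76 and A830082K12Rik with Nr2f1 0.75. At the other end Gt(ROSA)26Sor with Thumpd3 had -0.91 and Gm15564 with Parp9 -0.81, both tail-to-tail pairs.

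**Figure D5:**
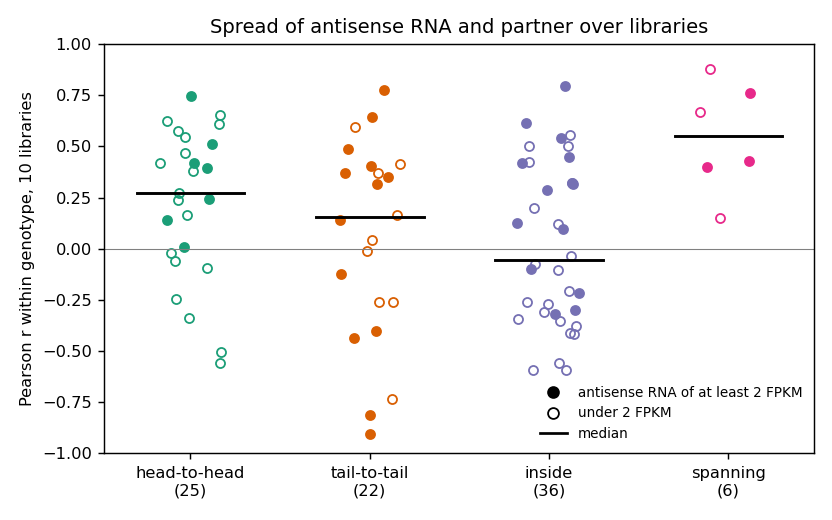
Pearson correlation (y axis) over 10 libraries, centred within genotype, between each antisense RNA and its tested main partner, by position (x axis, number of pairs in brackets). Filled points are RNAs of at least 2 FPKM, open points those below, and bars are medians, from -0.06 for RNAs inside a gene to 0.55 for the 6 spanning RNAs.

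Genes that make, sense or remove such RNAs were read from the same fit. Of 24 tested genes that sense or edit double-stranded RNA, which overlapping transcripts can form, 6 rose and none fell, where 9.77% of all genes rose and 3.51% fell. With median-of-ratios scaling 5 rose and 1 fell, and with quantile normalization 4 rose and 1 fell. Oasl2 had 0.683, 1.36, 1.05, 1.55 and 0.521 FPKM in WT and 4.74, 4.65, 1.75, 5.86 and 4.45 FPKM in KO (log2 fold change 1.35, limma adjusted p = 0.018). Eif2ak2, the RNA-activated kinase PKR, rose from 2.03 ± 0.359 in WT to 3.68 ± 0.661 FPKM in KO (SD, n = 5; limma adjusted p = 0.0186), and in both genes KO3 was the lowest KO library. Ddx58, which encodes the sensor RIG-I, rose by 0.74 on the log2 scale (limma adjusted p = 0.0186), and Oas1a and Ifih1 were called too. The genes named here are known interferon response genes. The editing enzyme gene Adar had 32.1 ± 1.75 and 33.4 ± 0.81 FPKM (SD, n = 5; limma adjusted p = 0.427). Without KO3, 9 rose and 1 fell.

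In the nuclear exosome and its cofactors, 0 of 26 genes passed in limma, with 5 at an unadjusted p under 0.05 and 0 called by limma voom. Under both other scalings 1 fell. Without KO3, 3 rose and 1 fell. Of 29 genes of the Integrator, termination and 3′ processing, 0 passed in limma, with 5 at an unadjusted p under 0.05, 2 called higher by limma voom, and 3 higher without KO3. The median log2 fold changes of these lists, 0.054 and 0.069, stand beside 0.078 for all genes and 0.12 for the double-stranded RNA list. Of 14 tested long intergenic and host RNAs of brain, 4 fell and none rose, with a median of -0.06, where 3.51% of all genes fell and 6.87% of long intergenic RNAs were called in either direction. They were Miat (log2 fold change -0.65, limma adjusted p = 0.0186), Snhg11 (-0.43, limma adjusted p = 0.0311), Meg3 (-0.38, limma adjusted p = 0.0343) and Pvt1 (-0.21, limma adjusted p = 0.0411). Without KO3 and under both other scalings 4 fell as well.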

How the data were processed

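RNA from the motor cortex of 5 WT and 5 KO mice was extracted with a Kurabo kit and made into NEBNext Ultra libraries, according to the protocols of the labels. Of the authors' own steps, the submitters' processing notes give only the names mm10 and DESeq2. Which aligner, counter and annotation were used is not given in the sources used here. Deposited by the authors were FPKM values per gene and library, with gene type, strand, coordinates and length, per the file headers. FPKM times length gave whole fragments for 100% of 210325 values above 0 (within 0.02), between 22793058 and 28827871 per library. A limma voom fit on them was an alternative, which called 9 members and 2128 genes.

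Members were rows typed antisense with a mean of at least 1 FPKM, off chromosomes X and Y. Their partners were coding genes overlapping on the other strand by at least 1 base. Exon overlap and RNA sequences came from GENCODE M21 (34490 of 35275 identifiers matched, and 114 of 121 members), and promoter windows from RefSeq. Genes with a mean of 0.5 FPKM or more entered a two-sided test of KO against WT on log2(FPKM + 1) in limma 3.58.1 (R 4.3.3; lmFit, then eBayes with its trend option), with genotype as the only term and Benjamini-Hochberg adjustment. The ratio fit, on log2(FPKM + 1) of the RNA minus that of its partner, ran over all opposite-strand pairs. Both were tested on simulated data.

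The members, gene lists and tests were chosen with earlier results of these data known. Named are the called members, the 8 most abundant, those with a called partner or ratio, those nearest the limit and those named for a gene. Alternatives covered pseudocount, filter, scaling, variance model, block, covariates, each library left out, threshold and member rule. The restrictions to members without exon overlap and by KO mean were chosen after seeing the data. Some single genes counted in the lists are not reported here by name.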

Additional observations from a re-analysis of the deposited data

Results flagged for a closer look

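Among 150 groups of 5 libraries examined (the named members and partners in each genotype), 12 held a library far from the other 4. Chance alone would mark about 1 in 20 groups. KO3 was that library in 6 of the 12. In KO3, Lrp8os2 was at 0.729 FPKM, where the other KO libraries had 1.35 to 1.48 FPKM, and Rab10os was at 6.33 FPKM against 5.37 to 5.55 FPKM. Among coding partners KO3 was highest of its group for Nr2f1 (22.8 FPKM against 15.8 to 17.1 FPKM), Ankrd52 (19.9 FPKM against 17.9 to 18.4 FPKM), Cacna1a (32.3 FPKM against 25.5 to 27.4 FPKM) and Pou6f1 (20.5 FPKM against 15.2 to 16.2 FPKM).

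WT1 had 3.74 FPKM of 4930556I23Rik, and the other WT libraries had 1.86 to 2.19 FPKM. Its host gene 2010300C02Rik was low in WT5, at 64.2 FPKM against 74.4 to 76.7 FPKM. KO1 had 1.28 FPKM of Gm16638, against 0.840 to 0.945 FPKM. Gm11084, the partner of Sp3os, had 2.51 FPKM in WT2 and at most 0.590 FPKM in the other WT libraries. Srrm4 was at 6.29 FPKM in KO5, against 7.43 to 7.75 FPKM, and Zfp85 at 0.514 FPKM in WT4, against 0.873 to 0.961 FPKM.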

How the results depend on the processing

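Counts in order are antisense members (10 in the reported fit), main partners (11), member ratios (1) and all genes (1926). They were 3, 3, 0 and 465 with no filter on low values, where 25406 genes were tested, and 18, 20, 4 and 3557 with library weights. They were 1, 0, 0 and 2 at an adjusted p under 0.01. They were 0, 0, 0 and 0 in limma with the olfactory bulb score or among libraries with Omp. They were 0, 0, 0 and 0, too, in an exact permutation test per gene, whose smallest p of 0.00794 limits the adjusted values. In that test 17 members had an unadjusted exact p under 0.05, and the share of all genes is not given. Without KO3 and with the olfactory bulb score the counts were 7, 7, 1 and 1139. Leaving out each library in turn gave 1 to 17 members, 0 to 20 partners, 0 to 7 ratios and 2 to 3763 genes. Ratios called were 0 with a pseudocount of 0.1 or 0.5 or without a trend, and 2 with a filter at 1 FPKM or with limma voom. Of 55 members of at least 2 FPKM 5 were called, and of 47 without exon overlap on the other strand 4. The causes were not tested. For Tmem259 the same left-out libraries gave log2 fold changes from -0.171 to -0.42, the lowest without KO replicate 3.

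The replicate numbers did not pair the samples (correlations of same-numbered libraries from -0.057 to 0.139, and 2 of 5 WT libraries correlated best with their own number). With a replicate block 10 members (5 higher, 5 lower), 7 partners, 1 ratio and 1271 genes were called. Of the 10 called members 7 were called again there. The 22 called single values kept their direction in every fit, with 303 fits still called and 247 not. The lowest fragment count of each member over the libraries had a median of 26, and the part of depth in the number of calls was not tested.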

Other observations

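Without the library labelled KO3, 7 further members passed the test, and for all 7 the value in KO3 was nearer to the WT mean than to the mean of the other KO libraries. Gm13629, tail-to-tail with the sodium channel gene Scn9a, had 2.81 FPKM on average in WT, 1.56 FPKM in the other 4 KO libraries and 2.58 FPKM in KO3 (log2 fold change -0.58 without KO3, limma adjusted p = 0.0114; 0.0534 with it). RP24-338G10.2 had 1.29 FPKM in WT, 0.663 FPKM in the other KO libraries and 1.81 FPKM in KO3 (-0.46, limma adjusted p = 0.00703; 0.186 with it). Gm3693, which overlaps the sodium-calcium exchanger gene Slc8a3, had 1.55, 0.890 and 1.39 FPKM in the same order (-0.43, limma adjusted p = 0.0227; 0.0696 with it). Gm15624, Gm10561, B230369F24Rik and 1810010H24Rik were higher in KO, by 0.27 to 0.47 on the log2 scale (limma adjusted p from 0.0217 to 0.0362). B230369F24Rik had a WT mean of 0.830 FPKM and was a member through its KO values, and RP24-338G10.2 and Gm3693, with KO means under 1 FPKM, through their WT values. These members were picked by the fit that leaves out KO3, which was left out because of its Tmem259 and Gfap values. That their KO3 values lay toward WT follows in large part from how they were picked.

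A930015D03Rik spans H2-T24 and also overlaps H2-T22 and H2-T23, 3 genes of the major histocompatibility complex. The ratio of the RNA to H2-T23 differed by -0.56 (SE 0.17, limma adjusted p = 0.11) and by -0.68 without KO3 (limma adjusted p = 0.0228). The correlation of A930015D03Rik with H2-T24 within genotypes was 0.88, the highest of the 89 pairs. These values were picked after they were seen.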
